A study of Mus musculus with 7 samples.

Results

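A set of genes of the p53 pathway were followed in the cervical spinal cord: *Trp53*, *Mdm2*, *Cdkn1a*, *Ccng1*, *Phlda3*, *Bbc3*, *Bax*, *Eda2r*, *Trp53inp1* and *Zmat3*. They were chosen by symbol as the p53 gene and a set of its well-known target genes, and are 10 of the 55487 genes in the count table. RNA was sequenced from 4 *Neat1*-KO; hSOD1G93A mice and 3 *Neat1*-WT; hSOD1G93A mice, all 8 weeks of age, with 1 poly(A) library per mouse. *Neat1* encodes a long non-coding RNA that forms the scaffold of nuclear paraspeckles, and the question was which genes in an ALS model differ when it is missing. Libraries are named below by genotype and by the replicate number of their labels, *Neat1*-KO 1 to 4 and *Neat1*-WT 2 to 4. Every mouse carried the mutant human *SOD1* transgene of the hSOD1G93A line, a model of familial ALS, so the values describe the loss of *Neat1* on this background and not the effect of the transgene. *Neat1*-KO mice lacked both copies of the gene and came from crosses of heterozygous parents. The cord was taken whole, so fewer cells of a type and less RNA per cell cannot be told apart.

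p53 is a transcription factor that accumulates after DNA damage and other stress and switches on genes that stop the cell cycle, repair DNA or start apoptosis. It binds DNA as a tetramer at response elements made of a pair of adjoining decamers, and 1 of its targets, *Mdm2*, encodes the ubiquitin ligase that keeps it low in unstressed cells. In motor neurons, which no longer divide, the pathway is known mainly through its apoptotic branch. *Neat1* is itself a p53 target, and paraspeckles form in cells in which p53 is active.

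The p53 consensus of 20 bases was searched for in the RefSeq promoter windows of GRCm38.p6, which span 250 bases before to 50 after each start. The consensus reads the same on both strands, and the C and the G at the core of each decamer, 4 bases in all, had to match. Windows were given for 8 of the 10 genes, and *Trp53inp1* and *Zmat3* had none. *Cdkn1a* and *Ccng1* held matches with 1 mismatch each, where 0.0639% of the 12517 tested genes with a window (8 genes) had at most 1. *Bbc3* and *Trp53* held matches with 3 mismatches each. At most 2 mismatches were found in 0.423% of genes and at most 3 in 1.73%, against 2 and 4 of the 8 genes here. These genes were chosen as p53 and its known targets, so the shares are a description and not a test. The 4 matches are shown because they are the closest to the consensus among these genes, with capitals for the bases that fit the consensus and lower case for mismatches.
Cdkn1a match: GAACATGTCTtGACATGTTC
Ccng1 match: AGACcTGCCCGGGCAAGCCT
Bbc3 match: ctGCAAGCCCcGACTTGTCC
Trp53 match: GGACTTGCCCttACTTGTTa

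The *Cdkn1a* match (chr17:29090928-29090947, plus strand) lay at positions -51 to -32 relative to the first RefSeq start and touched no annotated gene, and it began 2841 bases before the other RefSeq start of the gene. The *Ccng1* match (chr11:40755462-40755481, minus strand) lay at positions -195 to -176 relative to the start, also outside annotated genes. The *Bbc3* match (chr7:16309486-16309505, plus strand) was in an intron of *Bbc3*, with its first base 1093 bases after the start of the GENCODE gene and at position -97 relative to a RefSeq start. The *Trp53* match (chr11:69580284-69580303, plus strand) began at position -75 relative to the start and overlapped no exon. To show their surroundings, up to 50 bases on each side are given for the 3 genes that lay under an unadjusted p of 0.05 in the comparison of genotypes, with the match in capitals, 5′ to 3′ on the strand of the gene, and cut where an annotated exon begins.
Cdkn1a, chr17:29090878-29090975: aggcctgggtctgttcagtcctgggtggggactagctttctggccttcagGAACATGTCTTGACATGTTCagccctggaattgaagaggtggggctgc
Ccng1, chr11:40755412-40755531: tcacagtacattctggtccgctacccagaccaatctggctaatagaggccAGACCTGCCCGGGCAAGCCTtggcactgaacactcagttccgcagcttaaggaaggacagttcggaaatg
Bbc3, chr7:16309436-16309555: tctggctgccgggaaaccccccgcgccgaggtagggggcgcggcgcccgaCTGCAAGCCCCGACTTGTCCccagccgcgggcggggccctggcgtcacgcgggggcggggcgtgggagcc

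Among the other genes, the best match had 5 mismatches in *Phlda3*, 7 in *Bax* and 9 in both *Mdm2* and *Eda2r*. *Eda2r* and *Mdm2* thus lay on the far side of the peak of the distribution over all genes, and elements outside these windows were not searched. Among these genes the windows of *Bbc3* were the richest in G and C, from 74.7% to 78.0%, and the window around the *Cdkn1a* match had 54.7%. A match is a description of the letters and not a site shown to bind p53.

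**Figure D1:**
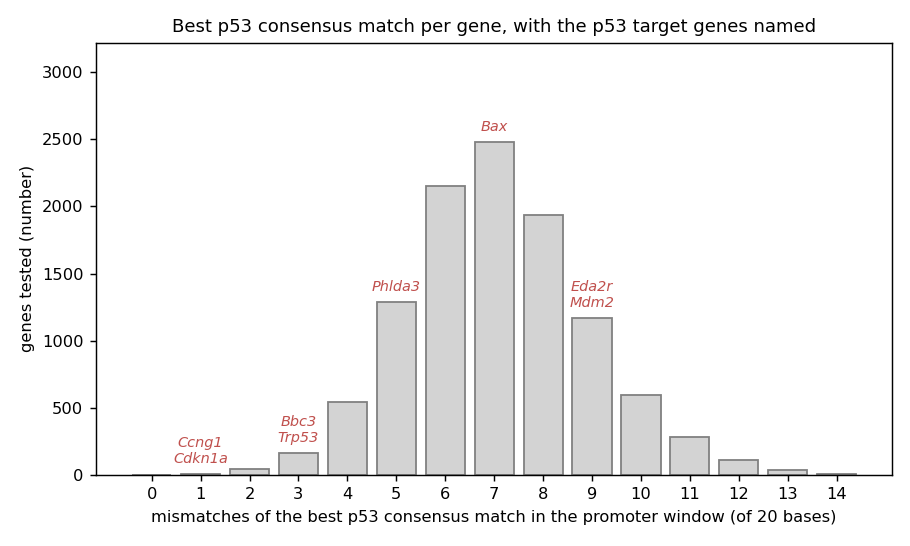
Number of tested genes (vertical axis) by the mismatches of the best p53 consensus match in the promoter window (horizontal axis, of 20 bases), with the p53 target genes written above their bar. *Cdkn1a* and *Ccng1* stand at 1 mismatch and *Bbc3* and *Trp53* at 3, while *Mdm2* and *Eda2r* stand at 9. Genes with no window that fits all 4 core bases (1708 genes) are not drawn.

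Libraries held 19661878 to 26031517 counted reads, TMM factors were 0.991 to 1.008, and mitochondrial genes took 3.694% to 5.239% of the counts. *Neat1* had 5.09, 5.402, 5.52 and 4.04 CPM (counts scaled to a common library size) in *Neat1*-KO 1 to 4 and 86.2, 80.5 and 118.4 in *Neat1*-WT 2 to 4, which fits the labels (log2 fold change -4.25, SE 0.15, edgeR adjusted p = 1.516e-08). Of 18449 genes tested, 6 (0.0325%) were called, which took an adjusted p under 0.1 together with a log2 fold change beyond 0.58 in either direction. Every neuronal, glial and vascular marker looked for had counts. The summed level of 6 motor neuron markers was 277.8 to 338.4 CPM in *Neat1*-KO and 359.7 to 428.1 CPM in *Neat1*-WT, with no overlap. Each of the 6 markers alone did overlap between the genotypes. The sums for neurons, astrocytes, oligodendrocytes and their precursors, microglia, endothelium, meninges, blood and Schwann cells overlapped. Markers of Schwann cells ranged from 23.9 to 255.3 CPM within *Neat1*-WT alone. *Neat1*-KO 4 stood apart in genes of the Y chromosome, with *Ddx3y* at 39.9 CPM against 75.8 to 94.4 in the other libraries, and *Xist* had at most 4 counts in any library.

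None of the 10 genes was called between the genotypes. All 10 passed the filter on low counts, and their edgeR adjusted p ranged from 0.9615 to 0.9959. The means of 4 were higher in *Neat1*-KO and of 6 lower, and the median log2 fold change was -0.03, against 0.01 over all genes tested. At an unadjusted p under 0.05 there was 1 gene with a higher level, *Bbc3*, and 2 with a lower level, *Cdkn1a* and *Ccng1*, where 2.24% and 2.4% of all genes tested lay in those directions. DESeq2 and limma-voom called 0 of the 10 as well. *Cdkn1a* was the single gene whose libraries did not overlap between genotypes, in the direction of lower levels in *Neat1*-KO, where 2.57% of all genes were, and 0 of the 10 were without overlap in the higher direction, against 2.91%.

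**Figure D2:**
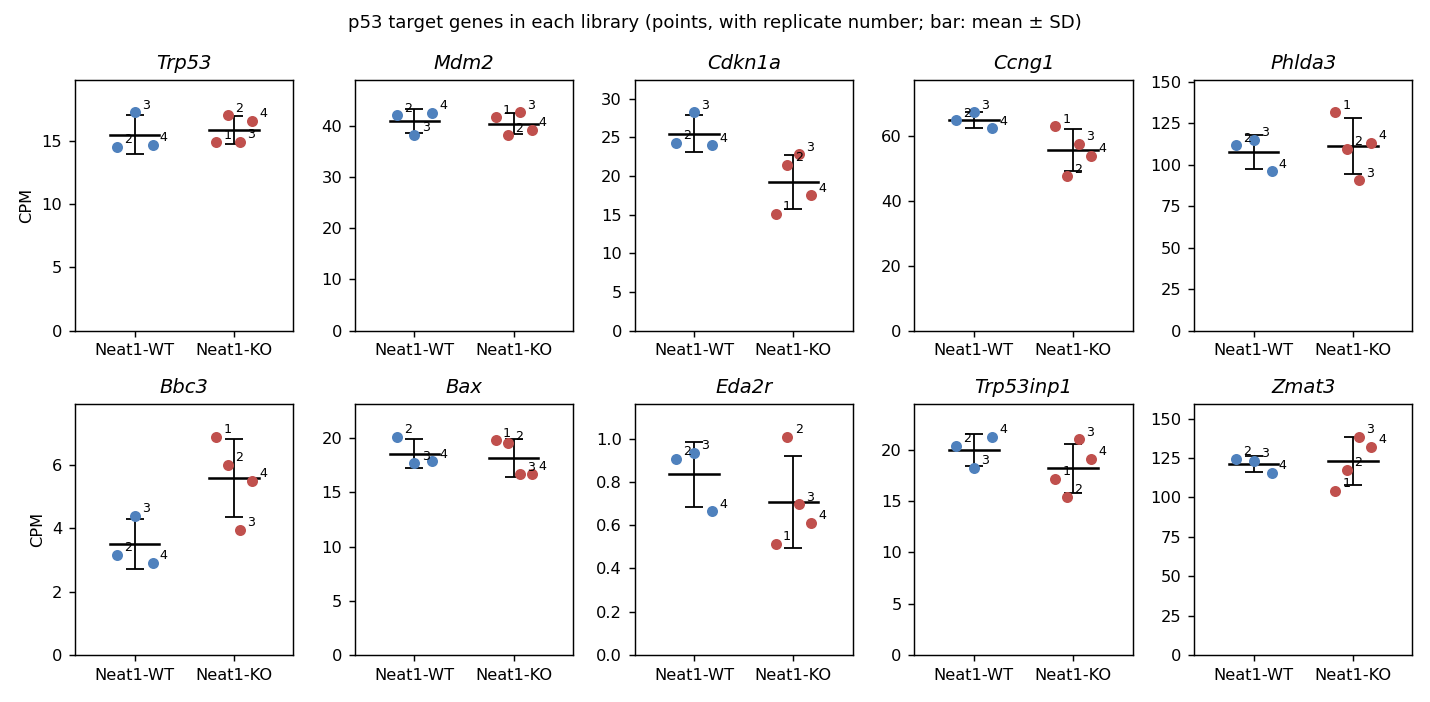
Level of each p53 pathway gene (vertical axis, CPM, from 0) in every library, with *Neat1*-WT in blue and *Neat1*-KO in red, replicate numbers beside the points, and bars for the mean and SD. The *Cdkn1a* points of *Neat1*-KO (15.1 to 22.8 CPM) all lie under those of *Neat1*-WT (23.96 to 28.2 CPM), and in *Bbc3* all points of *Neat1*-KO except replicate 3 lie above every *Neat1*-WT point.

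*Trp53*, which encodes p53 itself, had 14.9, 17.05, 14.9 and 16.6 CPM in *Neat1*-KO 1 to 4 and 14.6, 17.3 and 14.7 CPM in *Neat1*-WT 2 to 4. The ranges lay almost on top of each other, with a log2 fold change of 0.03 (SE 0.108, 95% interval -0.20 to 0.27). *Mdm2*, the ubiquitin ligase that targets p53, had 41.7, 38.1, 42.6 and 39.2 CPM in *Neat1*-KO and 42.1, 38.3 and 42.5 CPM in *Neat1*-WT. Its highest library was 1.12 times its lowest, the narrowest range of the 10 genes, with coefficients of variation of 5.16% (*Neat1*-KO) and 5.63% (*Neat1*-WT), and its log2 fold change was -0.02 (SE 0.0815, interval -0.20 to 0.16). The intervals of both genes exclude the minimum fold change for a call in either direction. RNA levels do not show the amount or activity of the p53 protein, which is set largely by its turnover.

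*Cdkn1a* encodes p21, the inhibitor of cyclin-dependent kinases through which p53 halts the cell cycle. It had 15.1, 21.45, 22.8 and 17.5 CPM in *Neat1*-KO 1 to 4 and 24.3, 28.2 and 23.96 CPM in *Neat1*-WT 2 to 4. The mean was 19.2 ± 3.54 CPM in *Neat1*-KO (SD, n = 4) and 25.5 ± 2.37 CPM in *Neat1*-WT (SD, n = 3), with every *Neat1*-KO library under every *Neat1*-WT library. The fold was 0.755 (interval 0.617 to 0.923) and the log2 fold change -0.41 (SE 0.134). The edgeR p was 0.01008 before adjustment, which ranked 192 of 18449, and 0.9615 after it, and the two-sided exact permutation p was 0.0571, where 0.0286 is the smallest that 7 libraries allow. The gap between the closest libraries was small, from 22.8 CPM in *Neat1*-KO 3 to 23.96 CPM in *Neat1*-WT 4. Its level varied 18.4% among *Neat1*-KO mice, where counting alone gives 4.75%. Without *Neat1*-WT 3, the highest library, the log2 fold change was -0.33 and the unadjusted edgeR p 0.05741. The gene AC167363.2 on the opposite strand overlaps 273 bases of its exons and had 26 to 79 counts, against 294 to 604 for *Cdkn1a*, and the strand setting of the counting was not given in the sources used here.

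*Ccng1* encodes cyclin G1, a p53 target that acts with protein phosphatase PP2A on MDM2. It had 63.1, 47.65, 57.8 and 54.0 CPM in *Neat1*-KO 1 to 4 and 64.9, 67.4 and 62.45 CPM in *Neat1*-WT 2 to 4. *Neat1*-KO 1 lay just above the lowest *Neat1*-WT library, and the other 3 *Neat1*-KO libraries lay under all of them. The fold was 0.857 (interval 0.743 to 0.988) and the log2 fold change -0.22 (SE 0.095, edgeR p = 0.03572, adjusted p = 0.992, exact permutation p = 0.0857). *Phlda3*, whose product binds membrane lipids and restrains the survival kinase AKT, had 131.5, 109.7, 90.5 and 113.1 CPM in *Neat1*-KO and 111.6, 115 and 96.0 CPM in *Neat1*-WT. The highest and the lowest library were both *Neat1*-KO, and the log2 fold change was 0.05 (SE 0.112, interval -0.19 to 0.29).

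*Bbc3* encodes PUMA, a BH3-only protein that frees BAX and BAK to open the outer mitochondrial membrane. It had 6.88, 6.01, 3.94 and 5.49 CPM in *Neat1*-KO 1 to 4 and 3.17, 4.39 and 2.91 CPM in *Neat1*-WT 2 to 4. The mean was 5.58 ± 1.23 CPM in *Neat1*-KO (SD, n = 4) and 3.49 ± 0.791 CPM in *Neat1*-WT (SD, n = 3), and *Neat1*-KO 3 alone lay among the *Neat1*-WT libraries. The fold was 1.596 (interval 1.146 to 2.224), the largest of the 10 genes, with a log2 fold change of 0.67 (SE 0.221). The edgeR p was 0.009456 before adjustment, which ranked 181 of 18449, and 0.9615 after it, and the exact permutation p was 0.0857. These values rest on 57 to 149 counts per library, and counting alone gives coefficients of variation of 8.84% (*Neat1*-KO) and 11.7% (*Neat1*-WT), against observed ones of 22.1% and 22.7%.

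*Bax*, the pore-forming protein downstream of PUMA, had 19.8, 19.55, 16.7 and 16.7 CPM in *Neat1*-KO 1 to 4 and 20.1, 17.7 and 17.9 CPM in *Neat1*-WT 2 to 4. Its log2 fold change was -0.03 (SE 0.106, interval -0.26 to 0.20), so that a change of the size measured for *Bbc3* lies outside its interval. *Eda2r*, an X-linked receptor of the TNF receptor family, was the rarest, with 10, 25, 15 and 16 counts in *Neat1*-KO and 20, 20 and 13 counts in *Neat1*-WT. That is 0.514 to 1.01 CPM against 0.663 to 0.934 CPM, and the spread of 30.3% in *Neat1*-KO is close to the 24.6% that counting gives. The log2 fold change of -0.23 had an interval from -0.999 to 0.54, which takes in the minimum for a call in the lower direction.

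*Trp53inp1*, a stress protein with a part in autophagy and in the modification of p53, had 17.2, 15.4, 21.02 and 19.1 CPM in *Neat1*-KO 1 to 4 and 20.4, 18.2 and 21.3 CPM in *Neat1*-WT 2 to 4. *Neat1*-KO 1 and 2 lay under every *Neat1*-WT library and replicates 3 and 4 among them, with a log2 fold change of -0.13 (SE 0.118, interval -0.39 to 0.12). *Zmat3* encodes a zinc finger protein that binds RNA and acts in splicing. It had 104.4, 117.7, 138.5 and 132 CPM in *Neat1*-KO and 124.7, 123.1 and 115.5 CPM in *Neat1*-WT, so that the *Neat1*-KO libraries lay on both sides of the others. The log2 fold change was 0.02 (SE 0.094, interval -0.18 to 0.23), and the coefficient of variation was 12.4% among *Neat1*-KO mice and 4.06% among *Neat1*-WT mice, a difference that was not tested.

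**Figure D3:**
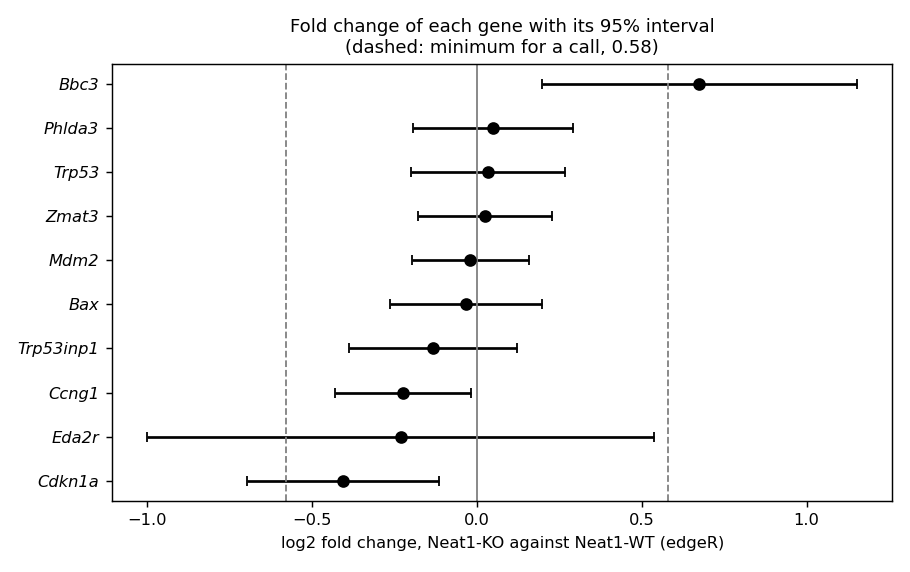
Log2 fold change of *Neat1*-KO against *Neat1*-WT (horizontal axis) for each p53 pathway gene, with points for the edgeR estimate, bars for the 95% interval and dashed lines at the minimum of 0.58 for a call. *Bbc3* (0.67), *Cdkn1a* (-0.41) and *Ccng1* (-0.22) have intervals that leave out 0, and the widest interval is that of *Eda2r*.

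Mean levels over the 7 libraries were taken per length of the union of annotated exons, so their order depends on the annotation. They were led by *Phlda3* at 70.3 RPKM (CPM per kilobase of exons), followed by *Ccng1* at 17.0 RPKM. Both stood clear of the next gene in all 7 libraries. *Bax* (11.6 RPKM) and *Zmat3* (10.7 RPKM) overlapped in range, as did *Mdm2* (7.99 RPKM) with *Cdkn1a* (6.16 RPKM), and *Cdkn1a* with *Trp53* (3.89 RPKM). *Trp53inp1* (2.92 RPKM) and *Bbc3* (2.21 RPKM) also overlapped, and *Eda2r* was lowest at 0.129 RPKM. *Bbc3*, which sets off the pore, was thus at a lower level per length than the pore protein *Bax* in every library, with at most 3.24 RPKM against at least 10.6 RPKM. All 10 genes together had 393.7 to 415.1 CPM in *Neat1*-KO and 397.8 to 430.5 CPM in *Neat1*-WT, which overlap.

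The genes did not move as 1 block between mice. *Neat1*-KO 1 had the lowest *Cdkn1a* (15.1 CPM), the lowest *Zmat3* and the lowest *Eda2r* of all libraries, and at the same time the highest *Bbc3* (6.88 CPM) and the highest *Phlda3*. *Neat1*-KO 2 had the lowest *Ccng1* and *Trp53inp1* and the highest *Eda2r*. *Neat1*-WT 2 was above the mean of the 7 libraries in 8 of the 10 genes, and *Neat1*-WT 4 in 4 of them. Set against each other, *Bbc3* counts per 100 *Cdkn1a* counts were 45.6, 28.0, 17.3 and 31.4 in *Neat1*-KO 1 to 4 and 13.1, 15.6 and 12.1 in *Neat1*-WT 2 to 4, with every *Neat1*-KO library above. This pair was chosen after the values were seen, so the ratio is a description and was not tested.

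**Figure D4:**
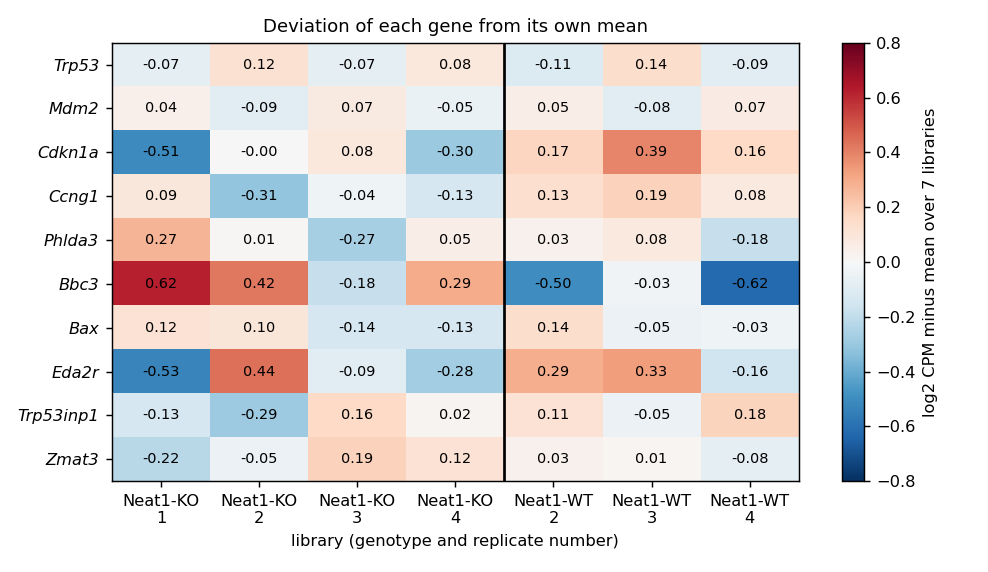
Deviation of each p53 pathway gene (rows) from its own mean over the 7 libraries (columns), in log2 CPM, in red above and in blue below. *Bbc3* and *Cdkn1a* have opposite colours in *Neat1*-KO 1, and *Trp53* and *Mdm2* stay pale throughout.

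Over the 7 libraries, 9 relations of log2 CPM with *Cdkn1a* were computed, and none passed adjustment. The largest Pearson coefficients were with *Eda2r* (Pearson r = 0.752, exact permutation p = 0.052, adjusted p = 0.333, Spearman rho = 0.607, exact permutation p = 0.167, adjusted p = 0.5) and with *Bbc3* (r = -0.714, exact permutation p = 0.074, adjusted p = 0.333, rho = -0.714, exact permutation p = 0.0881, adjusted p = 0.5). Without the 2 libraries farthest from the median of *Cdkn1a*, *Neat1*-KO 1 and 4, r was 0.1 for *Eda2r* and -0.273 for *Bbc3*, over a narrower range of *Cdkn1a* levels. With the genotype means removed, r was 0.741 for *Eda2r* and -0.344 for *Bbc3*. For *Ccng1*, the other gene with a match of 1 mismatch, r was 0.304 (exact permutation p = 0.512, adjusted p = 0.767) and rho 0.607 (exact permutation p = 0.167, adjusted p = 0.5). Its r was 0.847 without the same 2 libraries and -0.437 with the genotype means removed, so neither its size nor its sign was settled by these 7 mice.

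Wider lists of the pathway were read from the same edgeR fit. Of 54 other p53 targets, 53 were tested, 0 were called, and 0 lay under an unadjusted p of 0.05, also with DESeq2. The levels of 30 were higher and of 23 lower, and their median log2 fold change was 0.01, as it was over all genes. Among 17 tested targets that act in growth arrest the median was 0.04, and those with the smallest p were the stress sensor *Sesn2* (0.19), the kinase *Plk2* (0.15) and the ubiquitin ligase subunit *Fbxw7* (-0.09). Among 16 apoptotic targets, *Perp*, a membrane protein, had -0.44 and *Ninj1*, which breaks the plasma membrane of dying cells, 0.14. *Apaf1*, the scaffold of the apoptosome, had 0.14, with libraries that did not overlap (8.75 to 10.25 CPM in *Neat1*-KO against 7.70 to 8.74 CPM in *Neat1*-WT). Its closest libraries were 8.747 CPM in *Neat1*-KO 2 and 8.736 CPM in *Neat1*-WT 2, and its unadjusted edgeR p was 0.3006. It was the single one of the 53 tested targets without overlap, where 2.91% of all genes tested had none in that direction. The 20 targets in repair and metabolism had a median of 0.01, with *Ak1*, *Ephx1* and *Rps27l* all at 0.14.

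Of 24 regulators of p53, 23 were tested and 0 were called or lay under an unadjusted p of 0.05, with 6 higher, 17 lower and a median of -0.04. *Cop1*, a ubiquitin ligase for p53, had a log2 fold change of -0.15, and *Hipk2*, a kinase that phosphorylates it, -0.17. *Chek1*, a checkpoint kinase, had -0.33 (SE 0.232) with libraries that did not overlap, on 28 to 44 counts. No other of the 23 tested regulators was without overlap, and 2.57% of all genes tested had no overlap in the lower direction. On the BCL2 family list, 4 of 11 tested genes were higher and 7 lower, and the protective *Bcl2* had -0.18 (SE 0.0891, edgeR adjusted p = 0.992, exact permutation p = 0.0857), *Bcl2l2* -0.09 and the BH3-only *Bid* 0.14. Of 14 genes of the G1/S machinery, on which p21 acts, 6 were higher and 8 lower, with *Cdk6* at 0.50, *Rb1* at -0.10 and *Pcna* at -0.06.

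Genes of proliferating cells, which p53 and p21 hold down, numbered 17 tested of 20, with 12 higher, 5 lower and a median of 0.11. *Plk1*, a mitotic kinase, had a log2 fold change of 0.83 (SE 0.332, edgeR adjusted p = 0.992, exact permutation p = 0.0571), and its libraries did not overlap, on 13 to 38 counts. It was the single gene of the 17 under an unadjusted p of 0.05, and the single one without overlap. Over all genes tested, 2.24% lay under that p in the higher direction and 2.91% had no overlap in that direction. *Mcm3* had 0.43 and *Birc5* -0.40. *Cdkn1a* also responds to glucocorticoids. Of 15 glucocorticoid-responsive genes, 7 were higher and 8 lower, with a median of -0.01, and 0 lay under an unadjusted p of 0.05, with *Per1* at 0.28, *Klf9* at -0.10 and *Fkbp5* at -0.11. The part of glucocorticoids in the *Cdkn1a* values was not tested.

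**Figure D5:**
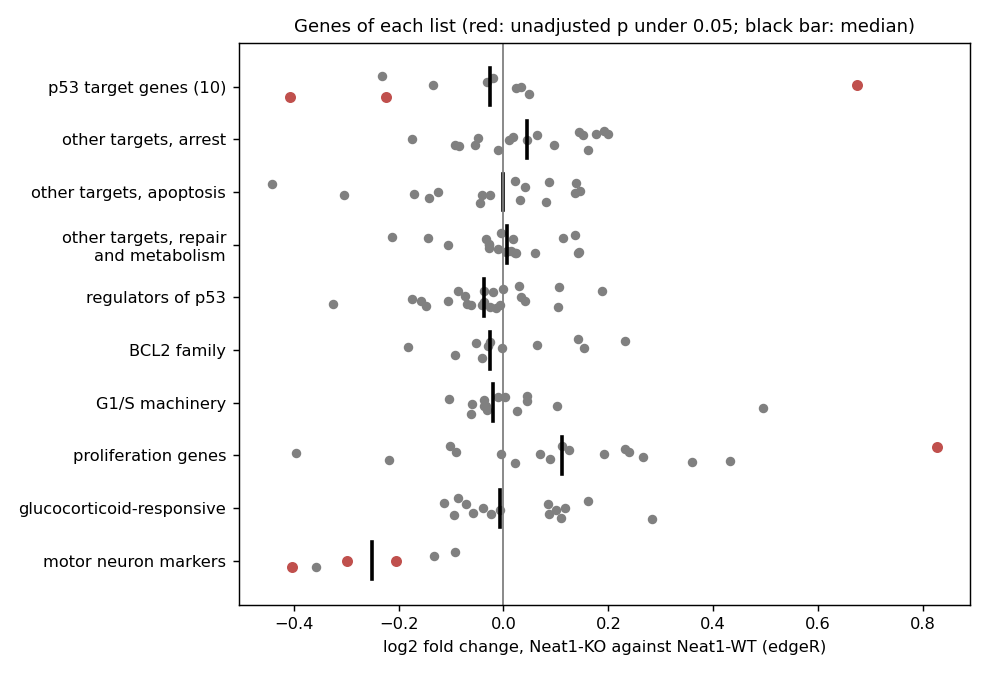
Log2 fold change of *Neat1*-KO against *Neat1*-WT (horizontal axis) for the tested genes of each list (rows), with red points for an unadjusted p under 0.05 and black bars for medians. The p53 target genes followed here have 3 red points, the other targets none, and the motor neuron markers lie under 0 throughout.

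Beyond the 10 genes, 51 others had a promoter match of at most 2 mismatches, and these include genes of the wider lists, such as *Rps27l*. Of them 29 were higher and 22 lower, with a median log2 fold change of 0.01, and 0 were called or lay under an unadjusted p of 0.05. With 3 mismatches allowed there were 213 other genes, of which 112 were higher and 101 lower, and 0 were called. Of the 213, 4 lay under an unadjusted p of 0.05, all lower. Over all genes tested, 2.4% lay under that p in the lower direction and 2.24% in the higher. Of the 8 genes with a promoter window, 4 had a match of at most 3 mismatches, and *Trp53inp1* and *Zmat3* could not be searched. The genes with p under 0.05 among the 10, *Cdkn1a*, *Ccng1* and *Bbc3*, were all among those 4, the remaining one being *Trp53*. This was seen after the fact and the directions differed, so it is given as a count.

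The motor neuron markers were lower in *Neat1*-KO for 6 of 6 genes, 3 of them under an unadjusted p of 0.05, with *Slc5a7* at -0.40, *Slc18a3* at -0.30 and *Prph* at -0.20 on the log2 scale and none called. Over all genes tested, 8888 of 18449 were lower, and 2.4% lay under that p in the lower direction. The mean levels of *Cdkn1a* and *Ccng1* were also lower in *Neat1*-KO, and the part of motor neurons in this was not tested. Other markers lay under an unadjusted p of 0.05 without being called, *Neu4* of oligodendrocyte precursors at -0.30 and *Lum* of the meninges at 0.66. Summed meningeal markers overlapped between genotypes (69.4 to 181.9 CPM in *Neat1*-KO and 62.7 to 187.1 CPM in *Neat1*-WT), and their part in the *Bbc3* values was not tested. Without *Neat1*-KO 4, the library with low Y chromosome genes, the log2 fold change was 0.68 for *Bbc3*, -0.36 for *Cdkn1a* and -0.21 for *Ccng1*, the last with an unadjusted edgeR p of 0.07418.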

How the data were processed

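The labels of the samples gave genotype and replicate number, for 4 *Neat1*-KO; hSOD1G93A and 3 *Neat1*-WT; hSOD1G93A mice, with 1 library per mouse. The authors made directional poly(A) libraries, trimmed the paired reads with Trimmomatic 0.38, aligned them to mm10 with HISAT2 2.1.0 and counted unique alignments with featureCounts 1.6.3 (versions per the submitters' processing notes), and deposited raw read counts per gene. The annotation release and the strand setting were not given in the sources used here. The column totals of 19661878 to 26031517 counts set the counting error, and the coefficients of variation from counting cover that error only.

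Gene symbols and coordinates were those of GENCODE M21 (GRCm38), which named 55227 of the 55487 genes. All genes were fitted together in R 4.3.3 with edgeR 4.0.16 (filterByExpr, TMM, quasi-likelihood F-test, Benjamini-Hochberg adjustment over 18449 genes). Genes were called at an adjusted p under 0.1 with an absolute log2 fold change over 0.58. CPM used TMM-scaled totals, RPKM the union of exons. SE and 95% intervals came from the edgeR test, which takes in variation between mice. Single genes also had a two-sided exact permutation test over the 35 ways to divide 7 libraries into 4 and 3. The scripts were tested on simulated data.

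The 10 genes and all lists (other targets, regulators, BCL2 family, G1/S machinery, proliferating cells, glucocorticoid-responsive genes, cell type markers) were chosen with earlier results of these data known. Named were the 10 genes, *Neat1*, the 3 genes with the smallest p and any called gene of each list, markers at an unadjusted p under 0.05, and overlapping genes. *Ddx3y* and *Xist* were named after their values were seen. Sensory ganglion markers (at most 0.4079 CPM summed) were not tested. The following alternatives were run: upper-quartile or median-of-ratios factors, no filter, 0.5 CPM in at least 1 library, DESeq2 1.42.0, limma-voom 3.58.1, robust dispersion, a replicate block, *Xist* as covariate, each library left out, an adjusted p under 0.05, no fold minimum, and other mismatch limits. RefSeq promoter windows were matched by symbol. BLAST 2.17.0 found no copy of the 10 genes (90% identity over 50% of its length) with more than 4 counts. Same-numbered libraries did not deviate together (r from -0.238 to -0.0119), so the numbers were not used as pairs.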

Additional observations from a re-analysis of the deposited data

Results flagged for a closer look

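Among the 40 genes examined for a library far from the others of its genotype, the apoptosome gene *Apaf1* was the one that stood out, with 10.25 CPM in *Neat1*-KO 3 where replicates 1, 2 and 4 had 8.75 to 8.85 CPM. The gap to the nearest library was 0.933 of the whole range, above Dixon's critical value for 4 samples. Chance alone gives about 2 such genes among 40.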

How the results depend on the processing

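No p53 pathway gene of the 10 was called under any alternative, including the DESeq2 Wald test, limma-voom, an adjusted p under 0.05 and no minimum of fold change with the main filter. Without the filter *Cdkn1a* reached an adjusted p of 0.06447, with a fold change under the minimum. Over the 16 alternatives the log2 fold change of *Cdkn1a* ranged from -0.50 to -0.31 (adjusted p from 0.06447 to 1), that of *Bbc3* from 0.48 to 0.87 (adjusted p from 0.1697 to 1) and that of *Ccng1* from -0.29 to -0.16, with an unadjusted p under 0.05 in 15, 15 and 11 of them. The number at an unadjusted p under 0.05 was 3, and 1 with *Xist* as covariate, which rests on at most 4 counts per library. It was 1 to 3 with 1 library left out (1 without *Neat1*-WT 3). For the wider targets it was 0, and 1 with the replicate block, 3 with the *Xist* covariate and 0 to 1 with 1 library left out (1 without *Neat1*-KO 1, *Neat1*-KO 3 or *Neat1*-WT 4). Small log2 fold changes turned sign: *Phlda3* to -0.044 with the replicate block and -0.024 with *Xist*, and *Trp53inp1* to 0.018 with *Xist*. With 1 library left out, *Phlda3* ranged from -0.044 to 0.134, *Trp53* from -0.011 to 0.116, *Mdm2* from -0.067 to 0.0066, *Bax* from -0.078 to 0.030 and *Zmat3* from -0.036 to 0.093. The causes were not tested. The share of genes with a promoter match was 0.423%, and 0.0639% at 1 mismatch and 1.73% at 3. Over all genes 6 were called, 124 without the filter, 27 with DESeq2, 39 with the replicate block and 3 to 31 with 1 library left out (31 without *Neat1*-KO 1, 11 without *Neat1*-WT 4, 3 without *Neat1*-WT 3). With the replicate block *Neat1*-KO 1 no longer informs the contrast, and it changed no call of the 10 genes. The wider windows planned for the consensus search were not run, because no genome sequence was used here. Depth limits *Eda2r* most, at 10 to 25 counts.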

Other observations

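Genes of the Y chromosome were lower in *Neat1*-KO 4 than in the other 6 libraries, with *Ddx3y* at 39.9 CPM against 75.8 to 94.4, *Eif2s3y* at 12.2 CPM against 19.6 to 33.2, *Kdm5d* at 9.69 CPM against 19.4 to 28.5 and *Uty* at 6.45 CPM against 16.6 to 23.1. *Xist* had at most 0.161 CPM in every library.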
